A study of Mus musculus with 16 samples.

Results

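Kdm2b and its Polycomb partners were followed in pancreatic islets of adult mice bred for deletion of the transcription factor gene Insm1 in beta cells. The set was named as 10 genes: Kdm2b, its paralog Kdm2a, the Polycomb genes Bcor, Pcgf1, Rybp, Ring1 and Rnf2, and Ezh2, Eed and Suz12. Of these, 9 were measured by at least 1 probe set whose annotation names 1 gene, out of 18193 genes measured in this way. Rybp was left out because both of its probe sets are annotated to Rybp and to a Rybp pseudogene together. The 9 genes had 28 probe sets, and each gene is described by its brightest one over all 16 arrays. Kdm2b drew attention because of its low signal in mutant islets in this same comparison, and the other genes were added for their known link to it. The differences of all 9 are therefore given as a description, with no p of their own. The fits across all genes and across all probe sets include them, and their calls are counted with nothing read from the counts.

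The mutants were RIPcreER; Insm1flox/lacZ mice and the controls RIPcreER; Insm1flox/+ mice, with 8 islet preparations and 8 arrays in each group. RIPcreER is a tamoxifen-inducible recombinase driven by the rat insulin promoter, so that deletion is directed to beta cells, whereas the lacZ allele is carried by every cell of a mutant. A tamoxifen pellet (25 mg, 21-day release) was given to mutants and controls alike at an age of 4 to 5 weeks, and their islets were isolated at 8 to 12 weeks. The background was mixed C57BL/6, 129/ola and CBA/J in both groups. The controls keep 1 wild-type allele but can lose the floxed one, and they are thus no model of intact Insm1. The question asked here is whether transcripts of this chromatin system differ when the remaining allele is lacking. Values are log2 signals of Affymetrix Mouse430_2 arrays, differences are mutant minus control, and n is 8 in each group. Precision is limited by this number of arrays. The series text calls the controls litter-matched without naming the pairs. Same-numbered arrays deviated together and are set side by side as pairs, while the fit uses genotype alone.

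Polycomb group proteins keep developmental genes silent by modifying histones. The first complex, PRC1, is built around the RING1 and RNF2 proteins, which attach ubiquitin to histone H2A. The second, PRC2, carries EZH2, EED and SUZ12, and methylates histone H3. KDM2B is a histone H3 lysine demethylase with a CXXC zinc finger that binds unmethylated CpG, and it brings a variant PRC1 with PCGF1, BCOR and RYBP to CpG islands. In islets, Polycomb proteins are known to restrain cell-cycle inhibitor genes and genes of other cell types.

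The preparations had strong endocrine signal, and they differed in the other cells they held. Insm1 itself ranged from 10.71 to 11.30 (median 11.08) in mutants and from 10.94 to 11.60 (median 11.24) in controls. Its difference was −0.25 ± 0.11 (SE, limma adjusted p = 0.182), and since it is unknown here whether the probes lie in the deleted part, it does not check the labels. The mean of 8 beta-cell markers was 11.99 ± 0.13 (SD) in mutants and 12.56 ± 0.10 in controls, lower in 8 of 8 pairs of same-numbered arrays. By gene, 6 of the 8 were lower in the mutant and 2 were higher, and the listed Ins1 and Mafa were not measured. The 4 measured alpha-cell markers averaged 10.41 ± 0.20 in mutants and 9.71 ± 0.20 in controls. Acinar-cell markers had the largest shift of the 9 marker lists. Their mean over 10 measured genes was 10.68 ± 1.57 in mutants (8.21 to 12.90) and 12.08 ± 0.83 in controls (11.13 to 13.24), a difference of −1.39, with the mutant lower in 8 of 8 pairs and for 10 of 10 genes. The 14 immune-cell markers ranged from 7.58 to 9.68 on mutant arrays and from 7.58 to 8.83 on control arrays. Mutant replicates 1 and 3 were the highest of all, at 9.68 and 9.38. Markers of stromal cells (8 measured) averaged 8.72 ± 0.30 in mutants and 8.31 ± 0.20 in controls, endothelial markers (7) 9.28 ± 0.22 and 9.34 ± 0.12, duct markers (4) 6.88 ± 0.16 and 7.20 ± 0.13, and delta-cell and PP-cell markers (4) 12.64 ± 0.13 and 12.42 ± 0.16.

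Kdm2b was lower in every mutant preparation than in any control preparation. Its brighter probe set ranged from 8.97 to 9.57 (median 9.15) in mutants, against 10.42 to 11.14 (median 10.91) in controls. The lowest control thus lay 0.86 above the highest mutant. The means were 9.20 ± 0.19 (SD) in mutants and 10.86 ± 0.28 in controls, a difference of −1.66 ± 0.11 (SE), or 3.16-fold lower. Among the 848 genes called lower, this difference ranked 11 by size, and nothing is read from the rank, since the gene was picked for this difference.

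The other probe set of Kdm2b gave the same picture. It ranged from 8.74 to 9.16 (median 8.92) in mutants and from 10.35 to 10.97 (median 10.70) in controls. The difference was −1.76 ± 0.09 (SE), again without overlap between the groups. In each of the 8 pairs, both probe sets read lower in the mutant. Groups without overlap were found for 2.29% of all genes, and for 1.09% with the mutant lower. Because Kdm2b was picked for this difference, nothing is read from that share. In bulk islets, fewer cells of a type and less RNA per cell cannot be told apart. The beta-cell marker mean given above was also lower in the mutant (−0.57), and its part in the Kdm2b difference was not tested.

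**Figure D1:**
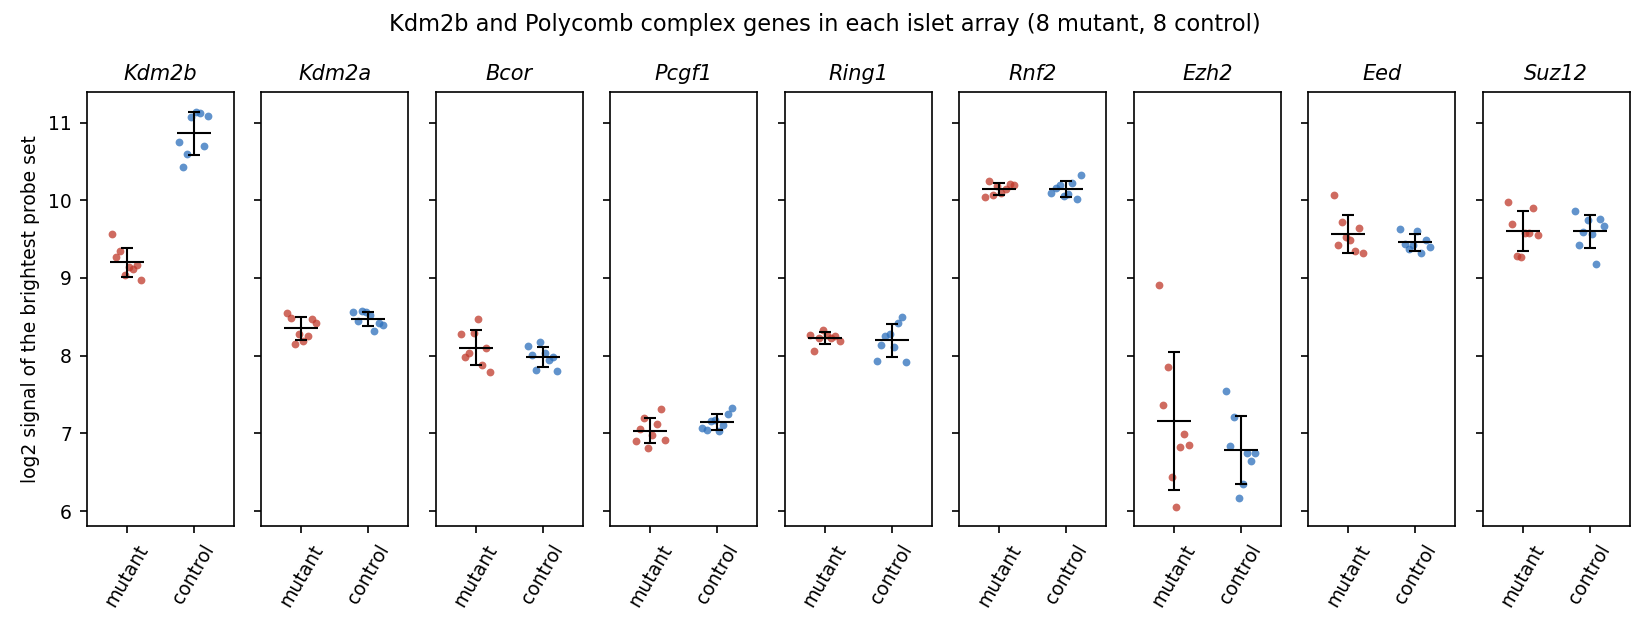
Log2 signal of the brightest probe set of each measured gene on each array, with mutant arrays (red, n = 8) left of control arrays (blue, n = 8) in every panel; black bars are means and SDs. Kdm2b is the gene whose groups lie apart, at 9.20 in mutants and 10.86 in controls, while the groups of the other 8 genes overlap.

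The size of the Kdm2b difference varied between pairs. In pairs 1 to 3 it was −1.19, −1.16 and −1.24, with a mean of −1.19. In pairs 4 to 8 it lay between −2.11 and −1.53, the smallest in pair 7, with a mean of −1.94. Mutant replicates 1 to 3 had the 3 highest Kdm2b values of their group, 9.57, 9.27 and 9.35, while the same-numbered controls read 10.75, 10.42 and 10.59 and the other controls 10.70 to 11.14. The second probe set also differed less in these pairs, with −1.36 to −1.49 in pairs 1 to 3 and −1.73 to −2.16 in pairs 4 to 8.

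On mutant arrays, signal from other cells moved with this split. Immune-cell markers read 9.68, 8.52 and 9.38 in mutant replicates 1 to 3 and 8.83, 7.65 and 7.80 in the same-numbered controls. Acinar-cell markers read 12.90, 12.02 and 11.55 in those mutants and 13.16, 13.24 and 12.01 in those controls. The mutant values of both lists were the 3 highest of the mutant group. In controls this held only in part. Control replicates 4 to 8 read 7.58 to 8.12 for immune-cell markers and 11.13 to 12.31 for acinar-cell markers. The immune means of control replicates 2 and 3 and the acinar mean of control replicate 3 lay within these ranges. The part of these cells in the Kdm2b difference was not tested. The Kdm2b difference was −1.62 with the acinar mean alone in the fit and −1.73 with the immune mean alone. It was −1.66 with the replicate numbers alone as a block, and −1.19 with the block and the acinar mean together.

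**Figure D2:**
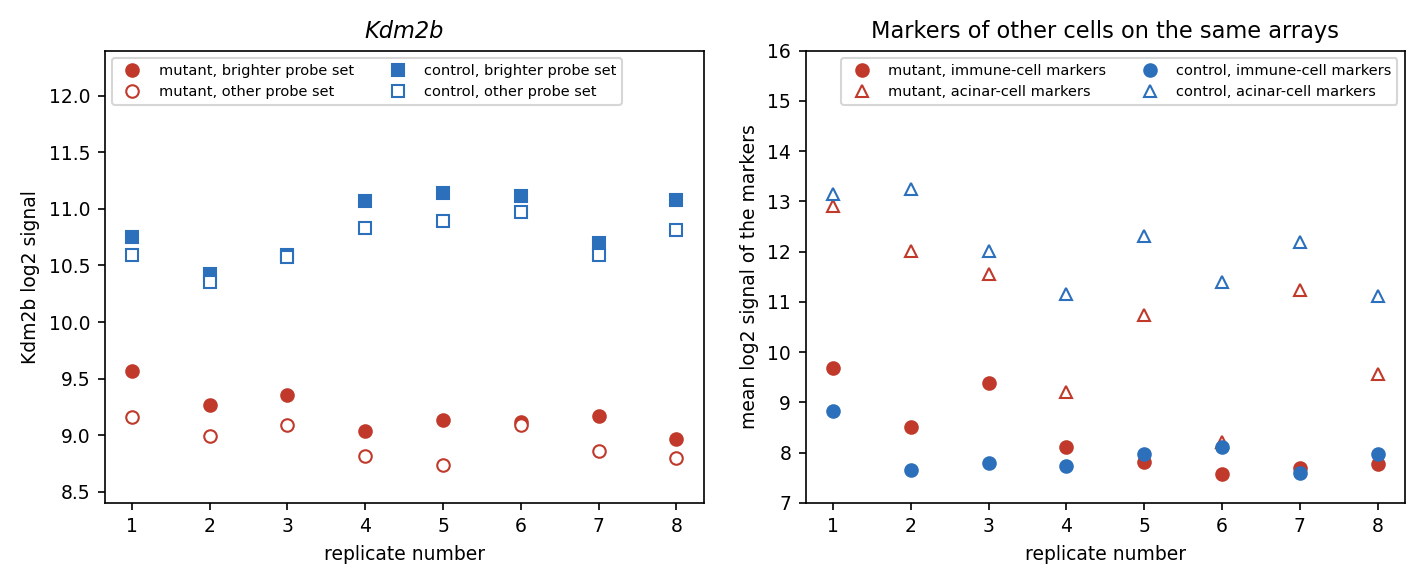
Left, log2 signal of both Kdm2b probe sets by replicate number in mutant (red circles) and control islets (blue squares), filled for the brighter and open for the other probe set. Right, mean log2 signal of 14 immune-cell markers (filled circles) and 10 acinar-cell markers (open triangles) on the same arrays. For the brighter probe set, mutant minus control lies between −1.24 and −1.16 in pairs 1 to 3 and between −2.11 and −1.53 in the others.

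Kdm2b is transcribed from alternative starts, which is why the sequence before 2 of them is shown. The long form carries the JmjC demethylase domain, and a short form that starts at an internal promoter lacks it but keeps the CXXC finger. RefSeq (GRCm38.p6) places Kdm2b on the minus strand of chromosome 5, from 122870664 to 122989270, with 4 starts in the table used here. Of these, 2 lie near the upstream end, 0.592 kb apart, and 2 lie 88.7 kb further along the gene. Below are the 250 bases before an upstream and an internal start, at chr5:122989100-122989349 and chr5:122900368-122900617, minus strand, 5′ to 3′, with every CpG in capitals. The upstream window takes in the gene end at 122989270, so it lies partly inside the gene.
Kdm2b upstream start: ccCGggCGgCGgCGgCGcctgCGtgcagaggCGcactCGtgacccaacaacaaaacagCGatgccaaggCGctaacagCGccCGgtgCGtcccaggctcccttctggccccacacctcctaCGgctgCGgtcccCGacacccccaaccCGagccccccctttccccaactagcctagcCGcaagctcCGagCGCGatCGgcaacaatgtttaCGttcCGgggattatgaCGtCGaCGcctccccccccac
Kdm2b internal start: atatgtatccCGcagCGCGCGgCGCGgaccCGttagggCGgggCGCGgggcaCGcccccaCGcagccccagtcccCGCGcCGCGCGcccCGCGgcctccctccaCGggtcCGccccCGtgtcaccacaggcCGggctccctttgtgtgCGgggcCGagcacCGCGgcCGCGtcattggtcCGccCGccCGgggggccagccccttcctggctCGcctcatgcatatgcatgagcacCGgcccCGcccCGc

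Both windows shown are CpG-rich, the kind of sequence that KDM2B protein itself binds when unmethylated, and methylation was not measured here. The upstream window holds 27 CpG and the internal one 36, against a median of 6 over 32851 windows of the same length before RefSeq starts. As many CpG or more were found in 8.56% of windows for the upstream start and in 2.58% for the internal one. The other upstream Kdm2b window, not shown, held 12 CpG (33.5%), and the other internal one 38 (1.88%). All 11 windows of the 7 member genes with an entry (Kdm2b, Bcor, Ring1, Rnf2, Ezh2, Eed and Suz12) held between 12 and 38 CpG. Kdm2a, Pcgf1 and Rybp had no entry.

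The study's title names Insm1, Neurod1 and Foxa2, so motifs for the 3 kinds of factor were searched on both strands of these windows. The Foxa motif TGTTTAC occurred in the upstream Kdm2b window shown, in the Eed window and in 3.17% of all windows. The E-box CAGATG, used for Neurod1, was in none of the 11 member windows and in 14.4% of all windows. A loose form of the Insm1 motif was in 4 of the 11 member windows (both overlapping internal Kdm2b windows, Rnf2 and Suz12) and in 6.22% of all windows. All 11 member windows held more CpG than the median window. The shares over all windows are thus no background of like base composition, and nothing is read from these counts. A match is only a run of letters, and the arrays used here do not tell from which start the Kdm2b signal came.

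The other 8 measured genes showed small differences or differences within the spread of the arrays. In the limma fit across all genes, with the brightest probe set of each, 1 of the 9 genes, Kdm2b, passed an adjusted p of 0.05. Of the 8 others 0 passed and 0 had an unadjusted p under 0.05. The background in this comparison is 8.76% of genes. In the limma fit over all probe sets, 6.86% passed an adjusted p of 0.05, and 1 of the 26 probe sets of these 8 genes. At an unadjusted p under 0.05 there were 3 of the 26. The rule for the set used the same comparison, so nothing is read from these counts. The 8 differences ranged from −0.12 to 0.38 with a median of 0.02, beside a median of −0.01 over all genes.

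Kdm2a encodes the paralog of KDM2B, which shares its JmjC domain and CXXC finger but is not known as a PRC1 subunit. It ranged from 8.15 to 8.55 (median 8.35) in mutants and from 8.32 to 8.58 (median 8.48) in controls, and the ranges overlapped. The difference was −0.12 ± 0.07 (SE), and the mutant was lower in 5 of 8 pairs. Its 6 other probe sets did not share a direction and lay between −0.15 and 0.29.

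The partners of KDM2B in its PRC1 complex had overlapping groups throughout. Bcor, the BCL6 corepressor that scaffolds the complex, ranged from 7.79 to 8.47 (median 8.07) in mutants and from 7.81 to 8.17 (median 7.99) in controls, a difference of 0.12 ± 0.09 (SE). Pcgf1, which pairs with the RING proteins in this complex, ranged from 6.82 to 7.31 (median 7.02) in mutants and from 7.02 to 7.32 (median 7.13) in controls, a difference of −0.11 ± 0.07. For Bcor the mutant was higher in 5 of 8 pairs, and for Pcgf1 in 4 of 8. The Bcor probe sets all had differences above 0, from 0.04 to 0.12.

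The catalytic core of PRC1 was close to level. Ring1 ranged from 8.05 to 8.33 (median 8.24) in mutants and from 7.92 to 8.50 (median 8.20) in controls, with the wider spread in controls. Its difference was 0.03 ± 0.08 (SE). Rnf2, which encodes the RING1B ligase, ranged from 10.04 to 10.25 (median 10.17) in mutants and from 10.01 to 10.32 (median 10.13) in controls. Its difference was 0.01 ± 0.05, with 4 of 8 pairs in each direction. Of the 4 other Rnf2 probe sets, 1 was higher in the mutant (0.10 ± 0.08) and 3 were lower, the lowest at −0.15 ± 0.07.

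Among the PRC2 genes, Ezh2 had the widest spread of the set. Ezh2, the histone methyltransferase, ranged from 6.06 to 8.91 (median 6.92) in mutants and from 6.17 to 7.55 (median 6.75) in controls. Its difference was 0.38 ± 0.32 (SE), although the mutant was higher in 7 of 8 pairs. It was 0.13 without mutant replicate 1, 0.10 without pairs 1 to 3, 0.04 with the immune mean in the fit and 0.90 with the acinar mean. Eed, which binds the methylated histone tail, ranged from 9.32 to 10.07 (median 9.51) in mutants and from 9.32 to 9.63 (median 9.43) in controls, a difference of 0.10 ± 0.09.

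Ezh2 is known to be high in dividing cells, and its high arrays were those with high cycling-cell signal. Mutant replicates 1, 3 and 2 had the highest Ezh2 values of their group, 8.91, 7.85 and 7.36. On these arrays the mean of 8 cycling-cell markers was 9.37, 8.55 and 7.54, the 3 highest of the group. Of the controls, replicates 1 and 3 had the highest Ezh2 values, 7.55 and 7.20, and cycling-cell means of 7.97 and 8.13, again the highest of their group. The cycling-cell mean was 7.40 ± 1.08 (SD) in mutants and 7.09 ± 0.80 in controls, and 3 of the 8 markers lay below the lowest array median. Eed was also highest on mutant replicate 1, at 10.07. The part of dividing or immune cells in these values was not tested.

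**Figure D3:**
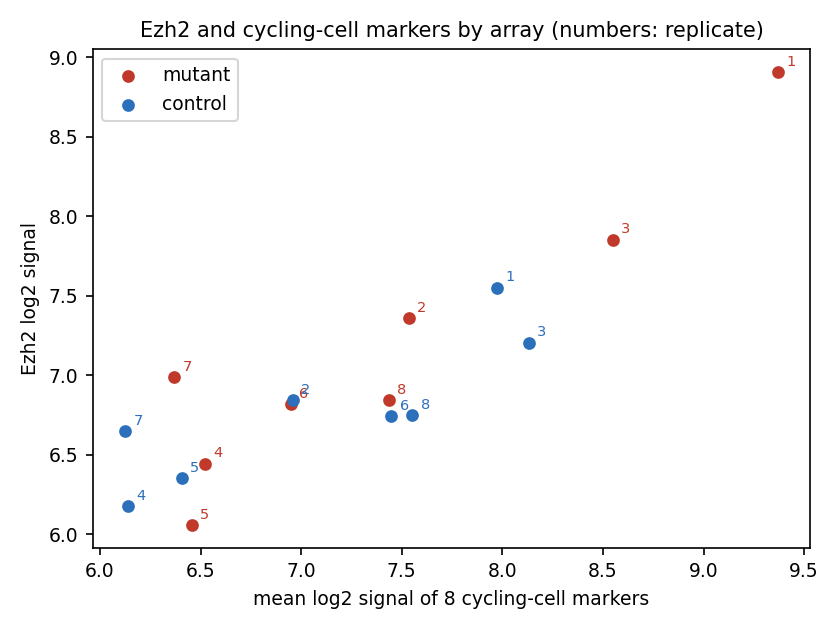
Log2 signal of Ezh2 against the mean log2 signal of 8 cycling-cell markers on each array, mutant in red and control in blue, with replicate numbers. Mutant replicate 1 lies at the top right, with Ezh2 at 8.91 and the markers at 9.37.

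Suz12, the subunit that holds PRC2 together, read alike in both groups with its brightest probe set. It ranged from 9.26 to 9.97 (median 9.58) in mutants and from 9.18 to 9.86 (median 9.63) in controls, a difference of −0.00 ± 0.11 (SE). Its probe sets disagreed in part. Of the 5 others, 4 had differences between −0.09 and −0.01. The remaining one ranged from 8.27 to 8.50 in mutants and from 8.06 to 8.30 in controls, a difference of 0.20 ± 0.05. The mutant was higher in 7 of 8 pairs with this probe set, and its groups overlapped. It was the 1 of the 26 probe sets that passed in the limma fit over all probe sets, where 6.86% passed. Nothing is read from that call.

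**Figure D4:**
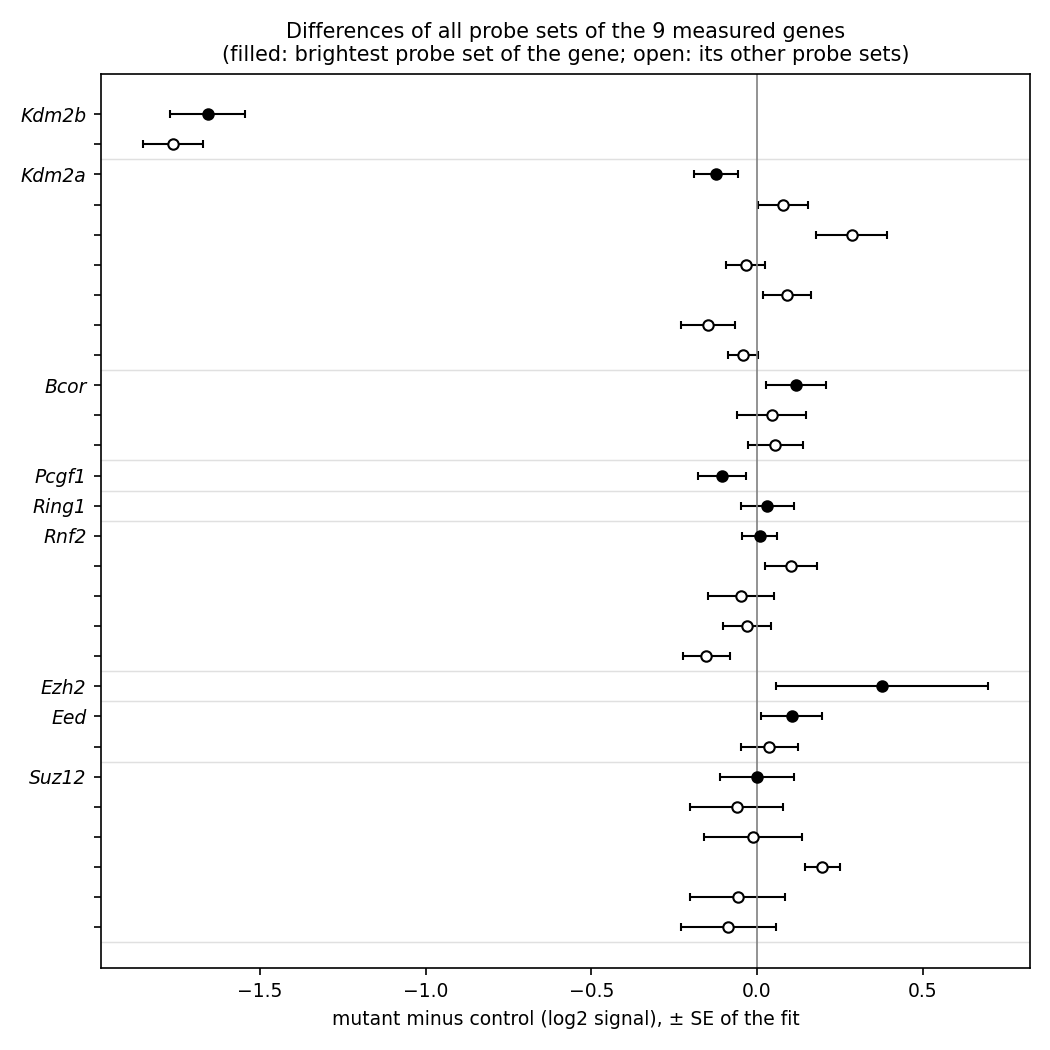
Mutant minus control difference of log2 signal with the SE of the fit for all 28 probe sets, grouped by gene, filled for the brightest probe set of each gene and open for the others. Both Kdm2b probe sets lie at −1.76 and −1.66, and the other 26 lie between −0.15 and 0.38.

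Within the groups, Kdm2b was at most moderately correlated with its partners. After group means were removed, its correlation with the 8 other genes over the 16 arrays lay between −0.11 (Rnf2) and 0.44 (Eed). Among 9095 genes with a mean above the median of all genes, the highest correlations were those of Pisd-ps3 (0.79), Dtymk (0.76), Dgkd (0.76), Hspa14 (0.75) and Bri3bp (0.72). The lowest were those of Cdc42bpb (−0.85), Ltbr (−0.78) and Tnfrsf1a (−0.73). None of these 8 genes was called between mutant and control, and the nearest, Pisd-ps3, had a difference of −0.46 ± 0.21 (SE, limma adjusted p = 0.201). The 16 points share arrays and cell make-up, and the correlations are a description chosen from many.

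The genes around these complexes were tested in the same fit, without the members. In 8 lists with 139 measured genes in all, 8 genes rose, 5 fell and 126 were not called, with a median difference of 0.00. At an adjusted p under 0.05, 4.1% of all genes rose and 4.66% fell. The share of all genes at an unadjusted p under 0.05 is not given here. Nothing is therefore read from the unadjusted counts of the lists below. With the replicate numbers as a block, 18 of the 139 were called (12 higher, 6 lower, all 13 among them), against 17.6% of all genes. Without pairs 1 to 3, 7 were called (7 higher, 0 lower, 5 of the 13 among them), against 4.55% of all genes. With the block and the acinar mean together, 1 was called, Phc3, against 3.95% of all genes, so that each of the other 12 calls ended in that fit. As said above, that fit cannot fully separate the acinar mean from genotype.

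**Figure D5:**
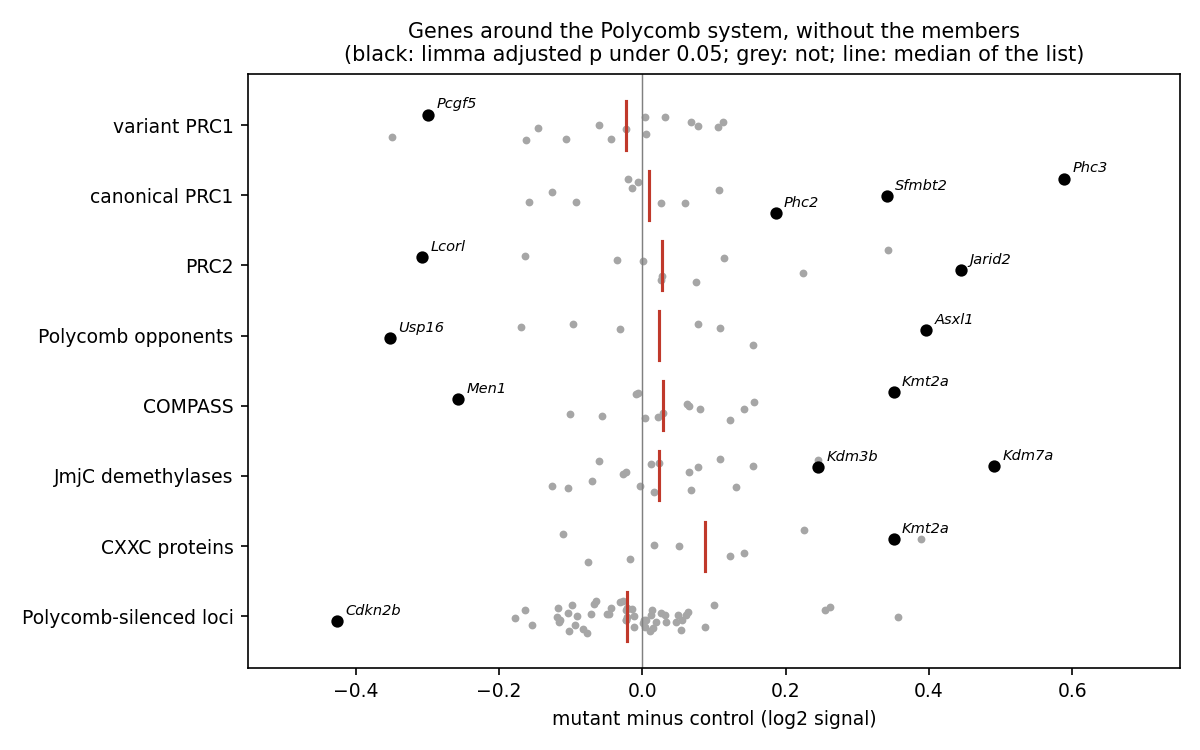
Mutant minus control difference of log2 signal for each non-member gene of the 8 lists, with called genes in black and named, other genes in grey, and the median of each list as a red line. Phc3 is the rightmost point at 0.59 and Cdkn2b the leftmost at −0.43, and the medians lie between −0.02 and 0.09.

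Of 15 further variant PRC1 genes, 1 fell and 0 rose, and at an unadjusted p under 0.05 there were 2 lower and 0 higher. The median difference was −0.02. The gene that fell was Pcgf5, a relative of Pcgf1 that forms another variant PRC1. It ranged from 8.79 to 9.44 (median 9.17) in mutants and from 9.18 to 9.62 (median 9.44) in controls, with overlap, and was lower in 8 of 8 pairs. Its difference was −0.30 ± 0.09 (SE, limma adjusted p = 0.0394). A second probe set was called lower as well (−0.26, adjusted p = 0.012 over all probe sets, of which 6.86% were called), and the remaining one read 0.10. Averaged, the 3 probe sets gave −0.15 and no call (adjusted p = 0.32). Leaving out a single array ended the Pcgf5 call for 10 of the 16 arrays, namely mutants 1, 2, 3 and 8 and controls 1, 2, 4, 5, 6 and 7 (highest adjusted p = 0.0751). The call also ended without pairs 1 to 3 and with either marker mean in the fit (adjusted p = 0.173, 0.0563 and 0.074).

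Canonical PRC1 reads methylated histone H3 through CBX proteins. Its list also takes in Sfmbt1 and Sfmbt2, which do not encode core subunits of this complex. In this list 3 genes rose and 0 fell among 12, with a median of 0.01. At an unadjusted p under 0.05, 3 were higher and 1 lower. The polyhomeotic gene Phc3, whose protein joins PRC1 particles into larger assemblies, ranged from 9.55 to 9.84 (median 9.69) in mutants and from 9.02 to 9.24 (median 9.08) in controls. These groups did not overlap, and the difference was 0.59 ± 0.05 (SE, limma adjusted p = 1.81e-06). A second, dim probe set read 0.04, and both averaged gave 0.31 (adjusted p = 0.000127). Its relative Phc2 rose by 0.19 ± 0.06 (adjusted p = 0.0499), a call at the threshold. It was lost with median centring (adjusted p = 0.098), with the acinar mean in the fit (adjusted p = 0.057), without pairs 1 to 3 (adjusted p = 0.195) and for 12 single arrays left out, namely mutants 1, 2, 4, 5 and 7 and controls 1, 2, 3, 5, 6, 7 and 8 (highest adjusted p = 0.0967). Over all probe sets, of which 6.86% were called, a second Phc2 probe set was called higher (0.20, adjusted p = 0.0128). The brightest was not called there (adjusted p = 0.0633). Both averaged gave 0.19 (adjusted p = 0.0113), and the Phc2 call was kept with the replicate block (adjusted p = 0.0166). Sfmbt2, which encodes an MBT-repeat protein, rose by 0.34 ± 0.08 (adjusted p = 0.00867). Its means were 4.63 in mutants and 4.29 in controls, far below the array medians, its call was lost without pairs 1 to 3 (adjusted p = 0.051), its second probe set read −0.03, and both averaged gave 0.15 (adjusted p = 0.0786).

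Bmi1, known for repressing the Cdkn2a locus, averaged 10.61 ± 0.12 (SD) in mutants and 10.77 ± 0.12 in controls, a difference of −0.16 ± 0.06 (SE, limma adjusted p = 0.144). It was named after its values were seen, because its averaged probe sets were called lower (−0.29, adjusted p = 0.0143) and with the acinar mean in the fit (−0.24, adjusted p = 0.0201).

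PRC2 had 1 further gene that rose and 1 that fell among 11, with a median of 0.03. Jarid2, an accessory subunit that helps to recruit PRC2, ranged from 9.39 to 9.93 (median 9.76) in mutants and from 8.86 to 9.46 (median 9.32) in controls, and was higher in 8 of 8 pairs. Its difference was 0.44 ± 0.09 (SE, limma adjusted p = 0.00286), and both other probe sets were higher too (0.34 and 0.33). Lcorl, a relative of the PRC2 accessory gene Lcor, was lower by −0.31 ± 0.08 (adjusted p = 0.0193). The call of Lcorl was lost without pairs 1 to 3, where the difference was −0.21 (adjusted p = 0.274), and with averaged probe sets (−0.23, adjusted p = 0.0564). Ezh1, the paralog of Ezh2 in cells that do not divide, differed by −0.16 ± 0.07 (adjusted p = 0.169), and it was picked after its values were seen, for its call with the replicate block (adjusted p = 0.0456).

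A list labelled Polycomb opponents took in genes for enzymes that remove Polycomb histone marks, and for partners of these enzymes. The label refers to removal of the marks alone. Of its 8 measured genes, 1 rose, 1 fell and 6 were not called, with a median of 0.02. Asxl1, the partner of the H2A deubiquitinase BAP1, rose by 0.40 ± 0.10 (SE, limma adjusted p = 0.0133) with means of 8.29 ± 0.16 (SD) in mutants and 7.89 ± 0.23 in controls. Averaged probe sets gave 0.22 (adjusted p = 0.0289), and the block with the acinar mean gave 0.20 and no call (adjusted p = 0.268). Usp16, another H2A deubiquitinase, fell by 0.35 ± 0.08 (adjusted p = 0.0108), with means of 9.69 ± 0.20 in mutants and 10.04 ± 0.13 in controls. Without pairs 1 to 3 the call of Usp16 was lost (−0.31, adjusted p = 0.0511), and with the mean of its probe sets it was −0.18 (adjusted p = 0.187). The H3 demethylase genes Kdm6a and Kdm6b, which remove the PRC2 mark, differed by 0.11 ± 0.08 and 0.16 ± 0.11 (adjusted p = 0.499 and 0.491), and were picked for their role after their values were seen.

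COMPASS complexes methylate histone H3 at active genes. Of 15 genes, 1 rose and 1 fell, with a median of 0.03. Kmt2a, a methyltransferase gene of the Trithorax group, rose by 0.35 ± 0.09 (SE, limma adjusted p = 0.0242) and was higher in 8 of 8 pairs. Its call was lost without mutant replicate 2 (adjusted p = 0.0516), without pairs 1 to 3 (adjusted p = 0.0696) and when its probe sets were averaged (adjusted p = 0.0852). With the block and the acinar mean the Kmt2a difference was 0.03 (adjusted p = 0.946). Men1, encoding menin, a scaffold of the KMT2A complex and a tumour suppressor of endocrine cells, fell by 0.26 ± 0.07 (adjusted p = 0.0227). Its call was lost without pairs 1 to 3 (adjusted p = 0.066), with averaged probe sets (−0.14, adjusted p = 0.0776) and in the fit of block plus acinar mean (−0.14, adjusted p = 0.552). A second Men1 probe set read −0.00.

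JmjC demethylases other than the KDM2 pair were tested as relatives of Kdm2b by domain. Of 19, 2 rose and 0 fell, with a median of 0.02, and at an unadjusted p under 0.05 there were 3 higher and 0 lower. Kdm7a ranged from 9.07 to 9.56 (median 9.37) in mutants and from 8.64 to 9.01 (median 8.87) in controls, without overlap. Its difference was 0.49 ± 0.08 (SE, limma adjusted p = 0.0009), and of its 4 other probe sets 1 was called higher (0.58) and 0 lower. Averaged, the Kdm7a probe sets gave 0.24 (adjusted p = 0.0162). Kdm3b, an H3 demethylase gene, rose by 0.25 ± 0.06 (adjusted p = 0.0126), but its averaged probe sets gave no call (0.13, adjusted p = 0.119).

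Of 10 other genes with a CXXC finger, 1 rose and 0 fell, with a median of 0.09, and at an unadjusted p under 0.05 there were 3 higher and 0 lower. The gene that rose was Kmt2a, described above. With the replicate block 3 were called, Kmt2a, Cxxc1 and Tet1, the other two named after their values were seen. Tet1, a 5-methylcytosine oxidase gene, differed by 0.39 ± 0.13 (SE, limma adjusted p = 0.0886, and 0.0102 with the replicate block). Without mutant replicate 8 it was called too (adjusted p = 0.0175), and without mutant replicate 2 no gene of the list was.

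Loci that Polycomb complexes keep silent in many cell types were mostly dim in both groups. Of 54 measured, many of them Hox genes, 17 had a mean above the lowest array median of 6.29, against 64.2% of all genes. Of the 54, 1 fell and 0 rose, with a median of −0.02, and at an unadjusted p under 0.05 there were 3 higher and 1 lower. Cdkn2b, which encodes the cell-cycle inhibitor p15 and is a known target of Polycomb repression, ranged from 7.44 to 8.02 (median 7.65) in mutants and from 7.94 to 8.30 (median 8.13) in controls. It was lower in 8 of 8 pairs, by −0.43 ± 0.09 (SE, limma adjusted p = 0.005), and without pairs 1 to 3 by −0.37, no longer called (adjusted p = 0.0877). With the replicate block 2 genes were called, Cdkn2b and Hoxb2. Hoxb2, named after its values were seen, differed by 0.26 ± 0.11 (adjusted p = 0.146, and 0.0367 with the block), and it was also called without mutant replicate 1 (adjusted p = 0.0444).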

How the data were processed

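Total RNA of whole islets was labelled by a 3′ IVT kit and measured on 16 Affymetrix Mouse430_2 arrays, 8 mutant and 8 control, per the labels. The authors deposited 1 log2 signal per probe set and array. The background correction, summarisation and normalisation behind it are not given in the sources used here. Array medians lay between 6.29 and 6.35, and correlations between arrays between 0.971 and 0.993. Of 45101 probe sets, 34945 are annotated to 1 gene by the platform annotation, 932 to several and 9160 to none, and symbols of 34741 were matched to RefSeq (GRCm38.p6). The brightest probe set stood for each of 18193 genes. Genes were tested with limma 3.58.1 in R 4.3.3 (genotype only, variance trend, Benjamini-Hochberg over all genes, threshold 0.05), after a check on simulated data. The members, gene lists and tests were chosen with earlier results of these data known. Named are all members, up to 4 called genes per list, the 5 highest and 3 lowest correlations with Kdm2b, and Insm1. The series text calls the controls litter-matched, without saying which animals share a litter. Same-numbered arrays deviated together in 8 of 8 pairs (correlation 0.289 to 0.721), and the numbers were taken to pair them. Alternatives covered scaling, filter, probe set, variance model, array weights, the replicate block, marker means and left-out arrays.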

Additional observations from a re-analysis of the deposited data

Results flagged for a closer look

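In 3 of 46 groups of 8 arrays, 1 array stood apart from the other values of its group for a named gene, by a gap above Dixon's critical value for 8 samples, and chance alone marks some groups in this way. For Jarid2, control replicate 2 read 8.86 and the nearest control 9.23. For Lcorl, control replicate 7 read 8.83 and the nearest control 9.13. For Men1, mutant replicate 2 read 8.16 and the nearest mutant 8.36. The calls of Jarid2, Lcorl and Men1 were kept when any 1 array was left out, with adjusted p of at most 0.00707, 0.0419 and 0.0492 in limma.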

How the results depend on the processing

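The replicate block, which takes same-numbered arrays as pairs, raised the genes called to 3200, against 1594 without it, kept all 13 calls among the list genes and added 5 (Ezh1, Cxxc1, Kdm5a, Tet1 and Hoxb2). With the block and the acinar mean together 718 were called, without pairs 1 to 3 828, and over every probe set 2398. Without any 1 array there were 1324 to 1645. The Kdm2b difference was −1.19 with block and acinar mean, −1.94 without pairs 1 to 3, and −1.72 to −1.62 without any 1 array. The median of the 8 other members lay between 0.01 and 0.07. Variant PRC1 genes called numbered 0 with the mean of probe sets, either marker mean, block with acinar mean, or without pairs 1 to 3, and 0 to 1 without any 1 array. Canonical PRC1 had 1 with block and acinar mean and 1 without pairs 1 to 3. PRC2 had 1 with the mean of probe sets and 0 with block and acinar mean. The opponents had 1 with the mean of probe sets, 0 with block and acinar mean and 1 without pairs 1 to 3. COMPASS had 0 in these 3 settings, and 1 to 2 without any 1 array. JmjC genes had 1 with the mean of probe sets and 0 with block and acinar mean. CXXC genes had 0 with the mean of probe sets, 3 with the block, 2 with the acinar mean, 0 with both and 0 without pairs 1 to 3, and 0 to 2 without any 1 array. Silenced loci had 2 with the block, 0 with block and acinar mean, and 1 to 2 without any 1 array. Of the 13 called list genes, Phc3 was the 1 still called with block and acinar mean. No direction reversed among called values. Fewer arrays entered the fits without pairs 1 to 3, and the other causes were not tested. Dim probe sets limit Sfmbt2 and most silenced loci.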

Other observations

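Some genes of the lists were called only under other settings, and are given as values chosen after they were seen. Lcor, a PRC2 accessory gene, differed by 0.22 ± 0.11 (SE, limma adjusted p = 0.23) over all arrays, by 0.36 without pairs 1 to 3 (adjusted p = 0.0291) and by 0.33 with the immune mean in the fit (adjusted p = 0.00697). Gata6, an endoderm transcription factor gene, differed by 0.36 ± 0.14 (adjusted p = 0.145) over all arrays and by 0.54 without pairs 1 to 3 (adjusted p = 0.033). Dnmt1, the maintenance DNA methyltransferase gene, differed by 0.23 ± 0.17 (adjusted p = 0.514) and by 0.50 with the acinar mean in the fit (adjusted p = 0.0477).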
